A study of Neurospora crassa with 22 samples.

Results

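Neurospora crassa genes with 3 or more annotated transcripts were described by how their RNA was divided among those transcripts in an hH1 mutant and in a wild type strain. The rule for the members used only the annotation, though it was set with earlier results of these data known. It took every gene with at least 3 transcripts listed in the expression table after 4 genes were left out by name. This gave 128 of 9730 genes and 409 of 10785 transcripts. Of these genes, 106 had 3 transcripts, 19 had 4 and 3 had 5, while 767 other genes had 2 transcripts and 8831 had 1. The RefSeq gene table for NC12, the genome assembly of the species, lists the same number of transcripts for all 128.

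RNA was measured in the hH1 mutant, which lacks a working gene for linker histone H1, and in wild type, with 3 libraries per strain. Linker histone H1 binds the nucleosome where DNA enters and leaves it. Conidia, the asexual spores, of both strains had been grown for 5 hr in Vogel's minimal medium, and the labels call the tissue mycelium. Strand-specific libraries were made from total RNA after ribosomal RNA was removed. Neither the allele of hH1 nor the mating type of the sequenced strains is given in the sources used here. The mating type gene matA-1 had 2.60, 1.75 and 3.83 FPKM (fragments per kilobase of transcript, scaled to library size) in the hH1 libraries and was listed at 0 in all 3 wild type libraries, so the hH1 allele and the mating type cannot be told apart. The libraries matched their labels for the mutated gene: hH1 (NCU06863) had 9.35, 2.06 and 3.22 FPKM in the mutant, against 266, 327 and 293 FPKM in wild type. Of 6 conidiation genes checked against the labelled tissue, con-13 was listed at 0 in every library and con-6, con-8, con-10, eas and fl lay between 0 and 12.1 FPKM.

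A fungal gene gives more than 1 transcript when transcription starts or ends at different places, when an intron is kept or removed, or when a splice site shifts. Introns in Neurospora are short, and many alternative forms differ only in the untranslated regions, the parts of the RNA before and after the coding sequence. Such forms encode the same protein but can differ in stability or in how well they are translated. In the identifiers used here the suffix T0, T1 and so on names the transcript and says nothing of its abundance. Most of the sequence of a gene's transcripts is shared, so its fragments must be divided among them by a model, and the few fragments that cross a differing stretch carry what is known of that division.

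The 128 genes had higher levels and longer gene bodies than the other genes at the median. Their summed FPKM, averaged over the 6 libraries, ran between 0.482 and 780 FPKM with a median of 24.9, against a median of 19.0 for genes with 2 transcripts and 7.76 for genes with 1. All but 1 gene, NCU01976, reached 1 FPKM, and 112 reached 5 FPKM. The median gene length was 3504.5 bases, against 2129 bases over all genes. They lay on all 7 linkage groups, with 38 on linkage group I, 20 on VII, 19 on V, 15 on III, 13 on II, 12 on IV and 11 on VI. Together they held between 1.14% and 1.24% of the summed FPKM in hH1 libraries and between 1.27% and 1.32% in wild type libraries. Their own sum overlapped between the strains, at 7318 to 7760 FPKM in hH1 and 7025 to 7561 FPKM in wild type. The sum over all transcripts was 626049 to 639266 FPKM in hH1, against 551935 to 572043 FPKM in wild type. In total RNA from many cells, fewer cells of a kind and less RNA per cell cannot be told apart.

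The exon structures of 5 members, all on linkage group III, were taken from the part of the study's NC12 gene annotation used here. They show how little can separate the transcripts of a gene. NCU00060 (minus strand, positions 2470058 to 2471847) has 3 transcripts with the same coding sequence of 1065 bases. T0 keeps a 5′ untranslated intron of 92 bases that T1 removes, and T2 removes 8 bases more, so that T1 and T2 differ by those 8 bases alone. NCU00089 (plus strand, positions 2574646 to 2577796) has 4 transcripts that differ in where a 5′ untranslated intron begins. That intron is 70 bases long in T0, 169 in T1, 211 in T2 and 303 in T3, and all 4 forms share a coding sequence of 1698 bases. In aab-1 (NCU00116, plus strand, positions 2666273 to 2668662), which encodes a subunit of a CCAAT-binding transcription factor, T0 keeps a long 5′ untranslated intron. T1 and T2 remove it and differ from each other by only 18 bases, while the coding sequence of 813 bases is common to all 3.

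The other 2 members with exon structures differ in the coding sequence among their transcripts. his-7 (NCU00150, minus strand, positions 2791470 to 2793296), a gene of histidine synthesis, has a coding sequence of 771 bases in T0 and T1 and of 711 bases in T2. T1 in addition removes an intron of 153 bases from the 3′ untranslated region and ends 74 bases earlier. NCU00196 (minus strand, positions 2958372 to 2963721) has coding sequences of 2955, 2754 and 2568 bases in T0, T1 and T2, and its 3 transcripts start at different places. T0 and T1 end at the same base, and T2 ends 311 bases upstream of it. Fragments assigned to these 5 genes, estimated from the steps between low FPKM values, numbered 104 to 855 per gene and library.

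**Figure D1:**
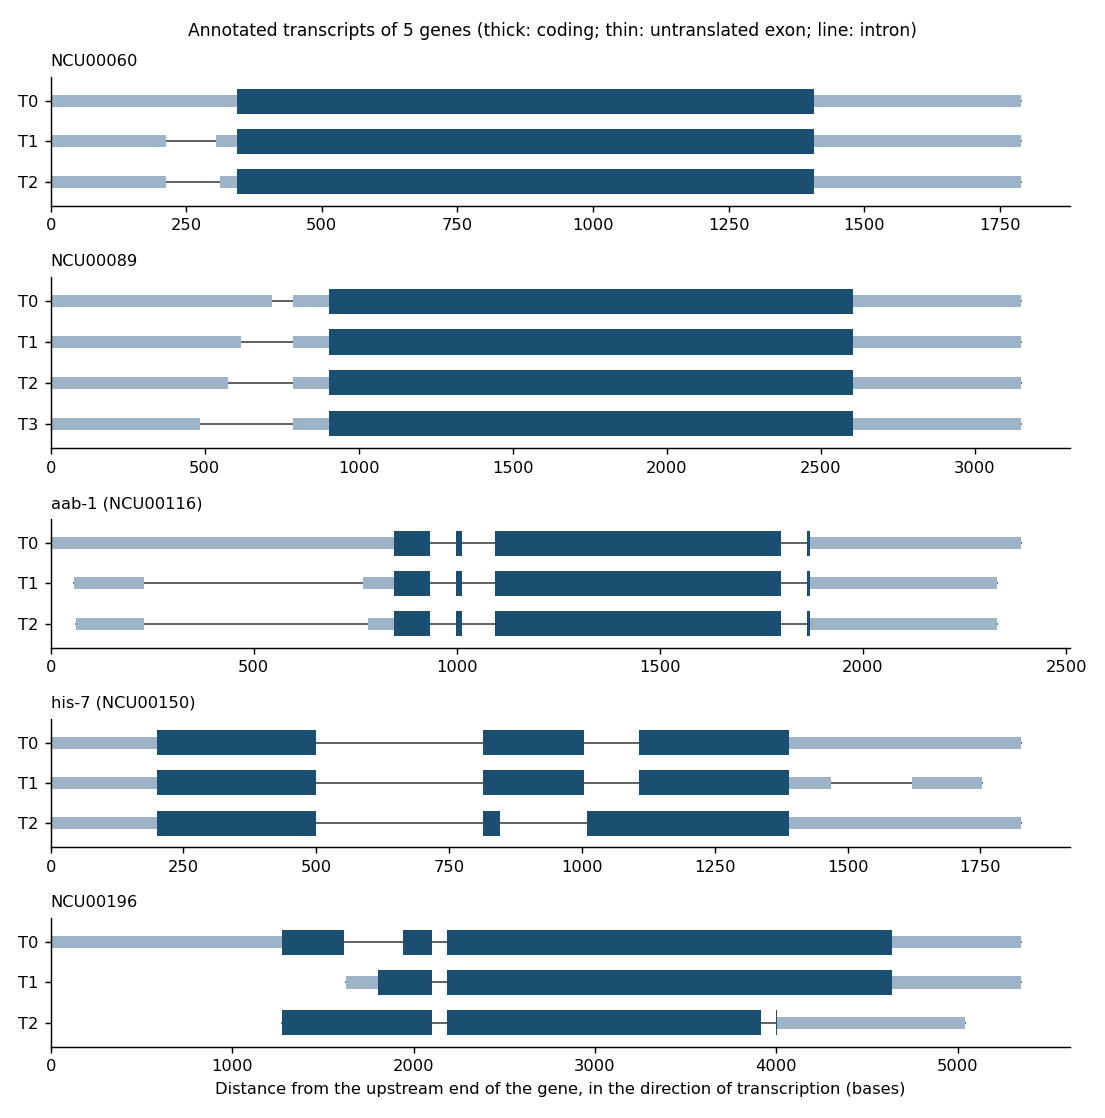
Exon models of 5 members, drawn to scale along the direction of transcription (x axis, bases from the upstream end of the gene; each gene has its own scale). Thick boxes are coding exons, thin boxes untranslated exons and lines introns; NCU00060, NCU00089 and aab-1 share 1 coding sequence among their transcripts, whereas his-7 and NCU00196 do not.

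The share of a transcript was taken as its FPKM in percent of the summed FPKM of its gene in the same library, a quantity that does not depend on how libraries were scaled to each other. Several of the most highly expressed members were dominated by 1 transcript in every library. NCU08502, the member with the highest mean level, had 760, 829 and 828 FPKM in hH1 and 758, 732 and 773 FPKM in wild type. Its T0 took 100%, 99.3% and 99.2% in hH1, against 98.2%, 97.4% and 98.6% in wild type. NCU08300 was led by T2, with 98.3%, 99.5% and 97.9% in hH1 and 89.3%, 100% and 92.3% in wild type. In both genes no other transcript exceeded 8.02% in any library.

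The other members among the 10 with the highest levels and without a symbol were divided in different ways. NCU02404 was led by T1, with 94.0%, 87.6% and 88.7% in hH1, against 83.0%, 87.0% and 78.0% in wild type. NCU09995 was led by T1, with 78.7%, 85.7% and 78.9% in hH1, against 75.4%, 83.3% and 73.1% in wild type. NCU06076 was led by T2, with 72.7%, 69.4% and 79.0% in hH1, against 68.7%, 71.0% and 73.9% in wild type. In these 3 genes the leader was the same in all 6 libraries. The strains overlapped in NCU09995 and NCU06076, whereas T1 of NCU02404 was higher in every hH1 library than in any wild type library (adjusted p = 0.767, limma). NCU03297 and NCU06361 each had 2 large transcripts that changed places. T0 of NCU03297 had 38.2%, 48.4% and 35.2% in hH1, against 59.8%, 56.1% and 33.3% in wild type, and T2 held nearly all of the rest. T1 of NCU06361 had 58.0%, 36.2% and 29.9% in hH1, against 36.4%, 34.5% and 30.1% in wild type, and it led only in the first hH1 library.

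Among genes of metabolism, lys-5, gst-3 and his-7 each kept 1 leader in all 6 libraries. lys-5, a gene of lysine synthesis, had 589, 638 and 675 FPKM in hH1, against 509, 586 and 638 FPKM in wild type. Its T2 took 84.4%, 80.7% and 87.0% in hH1, against 86.1%, 76.0% and 87.2% in wild type, and T1 took nearly all of the rest. The 6 libraries of lys-5 thus spanned a narrow range in which the strains overlapped. gst-3, a glutathione S-transferase gene, was led by T0 with 68.4%, 73.7% and 63.1% in hH1, against 70.7%, 78.9% and 69.1% in wild type. his-7 was led by T1, the form from which the 3′ untranslated intron is removed, with 97.9%, 71.9% and 66.7% in hH1 and 87.6%, 76.1% and 75.7% in wild type. The shorter coding form of his-7, T2, reached at most 5.69% in any library and was listed at 0 in 3 of them. tca-2, named for the tricarboxylic acid cycle, did not keep a leader: T1 had 76.5%, 46.6% and 21.4% in hH1, against 42.9%, 30.03% and 58.3% in wild type.

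The mitochondrial genes tom7 and tob55 each kept 1 leader. tom7 encodes a small subunit of the translocase of the outer mitochondrial membrane. Its T2 had 87.1%, 92.1% and 94.8% in hH1, against 94.1%, 100% and 98.0% in wild type. tob55 encodes the protein that inserts beta-barrel proteins into that membrane. Its T2 had 85.0%, 56.7% and 53.4% in hH1, against 44.9%, 60.4% and 52.1% in wild type, while T0 stayed between 10.7% and 18.0% in all 6 libraries. The first hH1 library stood alone in tob55: T1 was at 0 there and between 23.4% and 40.9% in the other 5.

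Among kinase and signalling genes the leader was constant in some and changed in others. ck-1a, casein kinase 1, was led by T0 with 93.5%, 62.2% and 56.3% in hH1, against 60.8%, 75.2% and 71.4% in wild type. camk-1, a calcium/calmodulin-dependent kinase gene, was led by T2 with 89.5%, 81.2% and 79.9% in hH1, against 62.2%, 65.7% and 91.0% in wild type. In hpt-1, which passes phosphate in the osmosensing pathway, the leader changed between libraries of 1 strain. Its T0 took 75.8%, 41.6% and 23.2% in hH1 and 23.7%, 14.7% and 41.9% in wild type. mob-2a, a partner of the growth kinase COT-1, also changed: T0 took 77.8%, 37.1% and 34.2% in hH1, against 53.3%, 41.6% and 50.0% in wild type. In stk-57, a serine/threonine kinase gene with 5 transcripts, T0 led in every library but ranged between 46.9% and 100%.

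Some of the widest swings were between libraries of the same strain. In pod-6, a kinase gene acting with COT-1, each of 3 transcripts took nearly everything in some library. Its T0 had 0%, 66.0% and 99.9% in hH1, against 0%, 5.29% and 11.4% in wild type. Its T1 had 0.745%, 33.0% and 0.104% in hH1, against 0.0214%, 94.7% and 88.6% in wild type, and T2 took 99.3% in the first hH1 library and 100% in the first wild type library. The summed FPKM of pod-6 varied far less, with 4.85, 7.23 and 6.28 FPKM in hH1 and 7.71, 8.13 and 9.43 FPKM in wild type. In hH2Az, the gene of histone variant H2A.Z, T2 took between 99.0% and 99.1% in 5 libraries. In the third wild type library T1 took 100% and T2 0.00832%, with no matching change of the sum, which was 27.2 FPKM there and 28.7 to 32.7 FPKM elsewhere.

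In aab-1 the swing was between the 2 forms that differ by 18 bases. T1 had 0.0174%, 10.03% and 67.3% in hH1, against 66.4%, 0.0318% and 68.8% in wild type. T2 had 70.7%, 56.2% and 0.0799% in hH1, against 0.0105%, 36.7% and 0.00561% in wild type. Added together, T1 and T2 had 70.7%, 66.2% and 67.4% in hH1, against 66.4%, 36.7% and 68.8% in wild type. The sum of these similar forms lay between 66.2% and 70.7% in 5 of 6 libraries, in which T1 alone ran from under 0.1% to 68.8%, and T0 took 63.3% in the second wild type library. The other members with untranslated differences also varied between libraries: T0 of NCU00060 ranged between 22.0% and 75.3%, and T3 of NCU00089 between 23.7% and 72.9%.

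Even splits of 2 transcripts also occurred. In wc-1, which encodes the blue-light photoreceptor and transcription factor White Collar-1, T2 and T3 had the same share within 0.5 points in 5 libraries. T2 had 28.7%, 14.6% and 13.8% in hH1, against 11.1%, 41.8% and 14.5% in wild type, and T3 had 28.7%, 14.6% and 13.8% in hH1, against 11.1%, 0.221% and 14.5% in wild type. The second wild type library alone gave T2 nearly all of what the pair held. Counting pairs of at least 5% each, 10 pairs of transcripts in 9 members were equal within 0.5 points in some library, and 9 of those pairs were equal in only 1 library. T0 of wc-1 was steady, with 32.3%, 40.2% and 34.5% in hH1 and 40.2%, 33.0% and 30.5% in wild type.

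**Figure D2:**
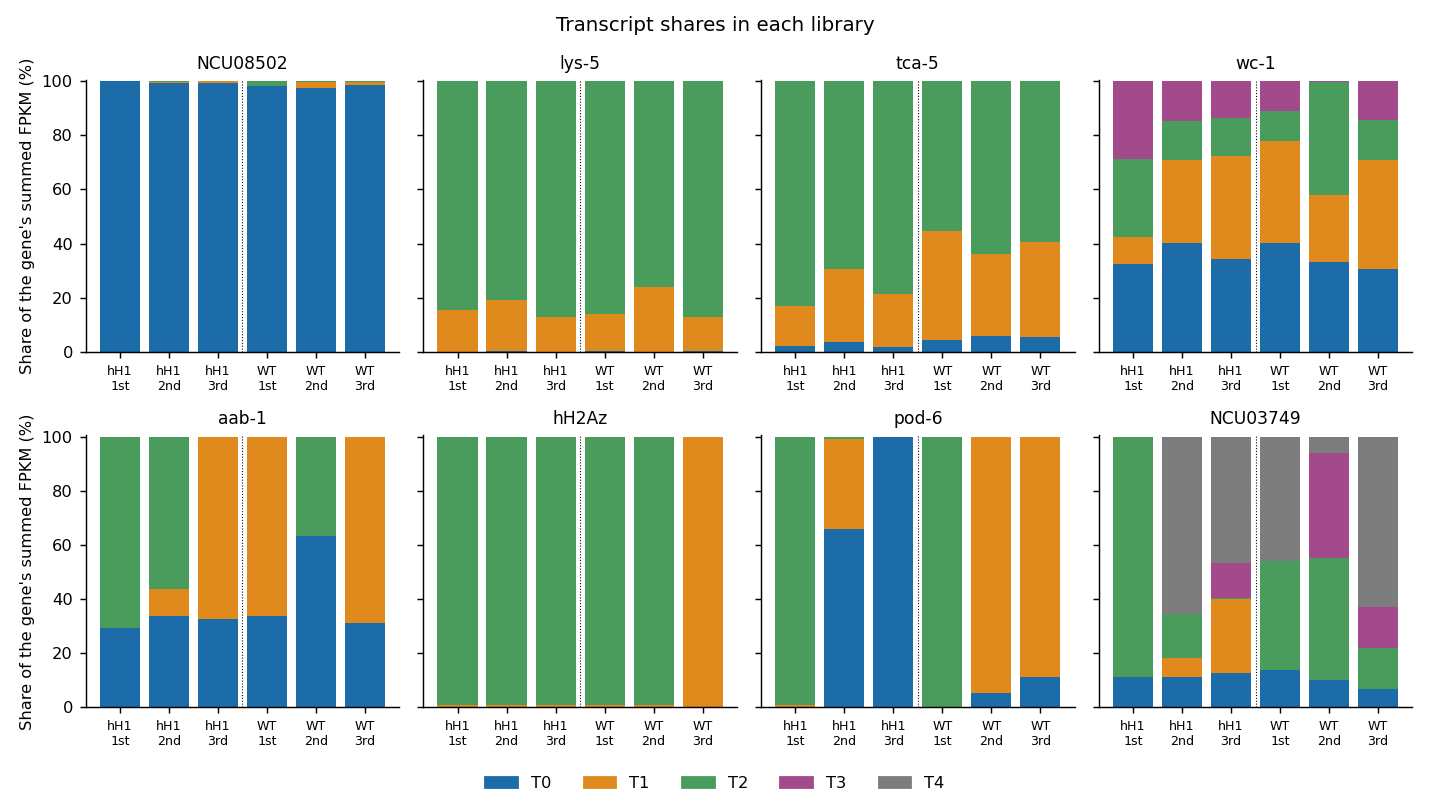
Stacked bars give each transcript's share of its gene's summed FPKM (y axis, percent) in the 3 hH1 and 3 wild type (WT) libraries, in the order the table lists them, for 8 members. NCU08502 and lys-5 are even across libraries, no transcript of tca-5 overlaps between the strains, and aab-1, hH2Az, pod-6 and NCU03749 change leader between libraries of 1 strain.

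Some annotated transcripts were listed at 0 in every library. Of the 409 transcripts, 255 were above 0 in all 6 libraries, 139 were at 0 in some and 15, in 14 genes, were listed at 0 in all 6. Those at 0 throughout included T0 of hH2Az, T1 of wsc-1, a gene for a sensor of cell wall stress, T3 of un-7 and T2 of NCU09995. In wsc-1 the remaining forms were T0, with 100%, 83.3% and 81.2% in hH1 against 97.3%, 83.0% and 66.5% in wild type, and T2. No member had a transcript at 0 in all libraries of 1 strain and above 0 in all 3 of the other.

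The leading transcript, the one with the highest FPKM, was often not the one numbered first. Over the 127 members of at least 1 FPKM, the highest mean share belonged to T0 in 33 genes, T1 in 32, T2 in 56, T3 in 5 and T4 in 1. T0 thus led in 26.0% of members, and in 42.7% of the 744 genes with 2 transcripts at that level. These percentages have unlike baselines, because members have more transcripts that could lead. The leader's mean share was at least 90% in 13 members, between 50% and 90% in 93 and under 50% in 21, with a median of 66.4%. Among genes with 2 transcripts, where it cannot fall under 50%, it was at least 90% in 37.0%.

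The same transcript led in all 6 libraries in 62 of 127 members (48.8%), in all 3 hH1 libraries in 78 and in all 3 wild type libraries in 83. Among genes with 2 transcripts, where fewer transcripts could take the lead, 478 of 744 (64.2%) had 1 leader throughout. Constancy went with expression level: 30 of 42 members in the upper group by FPKM, when members were split into 3 groups by level, 19 of 43 in the middle group and 13 of 42 in the lower group kept 1 leader. With 4 or 5 transcripts, 11 of 22 members kept 1 leader, and with 3 transcripts 51 of 105. NCU03749, with 5 transcripts and a total of 129, 86.1 and 99.5 FPKM in hH1 against 63.3, 77.5 and 78.4 FPKM in wild type, was among the most variable. Its T4 had 0%, 65.6% and 46.5% in hH1, against 45.8%, 5.92% and 62.9% in wild type, whereas T0 stayed between 6.70% and 13.7% in all libraries. NCU02793, which also has 5 transcripts, was divided mainly between T1, with 93.7%, 42.7% and 22.0% in hH1 against 56.0%, 25.0% and 38.9% in wild type, and T3.

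To compare whole genes, the distance between 2 libraries was taken as 0.5 times the summed absolute differences of a gene's transcript shares, in percentage points, so that 0 means equal shares and 100 no overlap. The first hH1 library stood apart from the other 5. Its median distance over 127 members was 19.7 and 24.8 points to the other hH1 libraries and 22.0 to 24.5 points to the wild type libraries. The second and the third hH1 library were 14.2 points apart, wild type libraries were 11.2 to 16.2 points apart, and pairs across strains without the first hH1 library were 12.6 to 17.8 points apart. In 27 of 127 members (21.3%) the mean distance between strains exceeded both means within a strain, and in the other members it did not. Among genes with 2 transcripts it did so in 110 of 744 (14.8%), and the difference between these sets was not tested.

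The first hH1 library also had more missing transcripts. It listed 97 of the 409 transcripts at 0, against 52 and 59 in the other hH1 libraries and 57 to 63 in wild type libraries. In it 50 members gave at least 90% to 1 transcript, compared with 25 and 27 in the other hH1 libraries and 26 to 29 in wild type. Genes with a single annotated transcript showed the same: 2174 of 8832 (counting 1 gene left out by name) were at 0 in the first hH1 library, against 1669 and 1672 in the other hH1 libraries and 1572 to 1708 in wild type. Its depth, estimated from the steps between low FPKM values and given in units of 1000000 fragments, was 9.19, against 7.47 and 5.77 for the other hH1 libraries and 6.51 to 11.3 for wild type libraries. The estimate for the first hH1 library rests on only 7 low values, and for any library a whole multiple of the true depth could be returned. Without the first hH1 library, 73 of 127 members had the same leader in all 5 libraries left, a count that cannot fall when a library is left out. The other 2 hH1 libraries had the same leader in 106 members. Pairs with the first hH1 library had it in 89 and 86, and pairs of wild type libraries in 92 to 99.

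**Figure D3:**
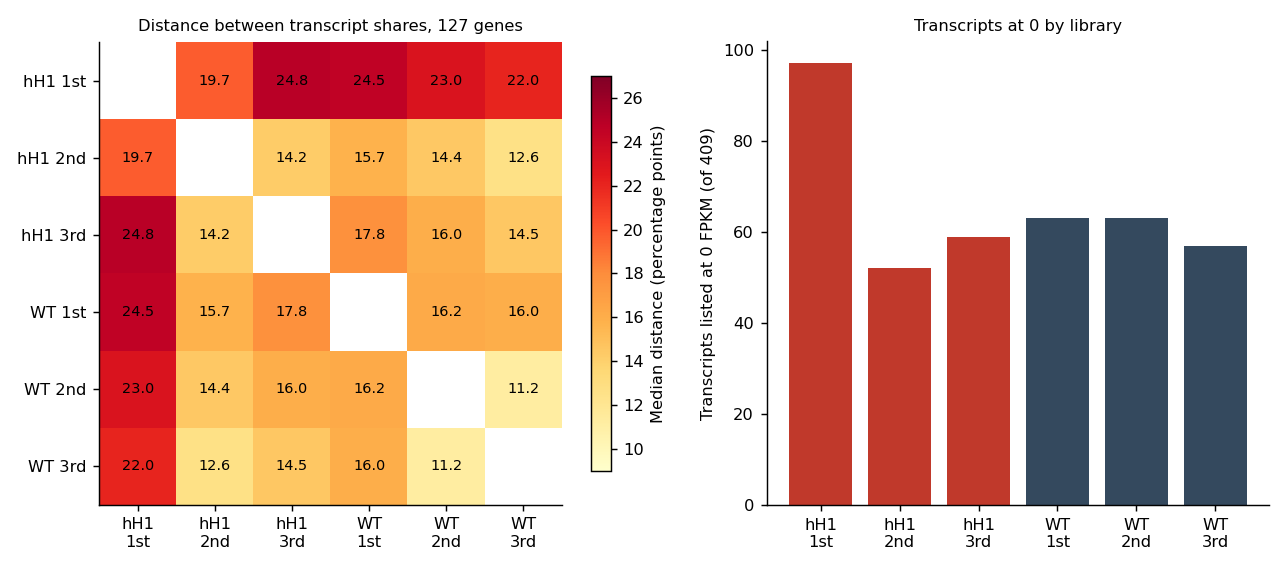
Left, median distance between transcript shares over 127 members for each pair of libraries (colour and number, percentage points). Right, number of the 409 transcripts listed at 0 FPKM in each library; the first hH1 library has 97 and is 19.7 points or more from every other library, while all other pairs are at most 17.8 points apart.

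Whether transcript shares differed between the strains was tested with limma over all 1861 transcripts of genes with 2 or more transcripts that reached 1 FPKM. Of these, 391 belonged to the 127 members. No transcript passed a Benjamini-Hochberg adjusted p of 0.05, among members (0 of 391) or over all transcripts tested (0%), and none of the members' did without the first hH1 library. At an unadjusted p under 0.05 there were 28 member transcripts in 18 genes (7.16%), against 6.34% of all tested. Shares of the 3 hH1 and 3 wild type libraries did not overlap for 48 member transcripts in 32 genes (12.3%), against 12.4% of all tested, so that the members were near the background on both counts. The shares of a gene add up to the whole, so its transcripts are not independent in these counts. In a gene with 2 transcripts both have the same difference with opposite sign. The median absolute difference between strain means was 5.90 points for members and 5.89 points for all tested, and the median standard error of a member's difference was 8.89 points. The p-values set the difference between strain means against the spread between these libraries, which the series describes as biological replicates.

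Libraries of 1 strain differed widely in their shares. The SD of a member transcript's share over 3 libraries had a median of 10.03 points in hH1 and 7.94 points in wild type. It was 20 points or more for 23.0% of transcripts in hH1 and 17.4% in wild type. At these spreads, a difference of a few points was not detectable in most members. Far larger differences did not pass either: T2 of NCU03142 averaged 71.3% in hH1 and 14.2% in wild type. A share that did not pass is thus not shown to be equal between the strains.

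**Figure D4:**
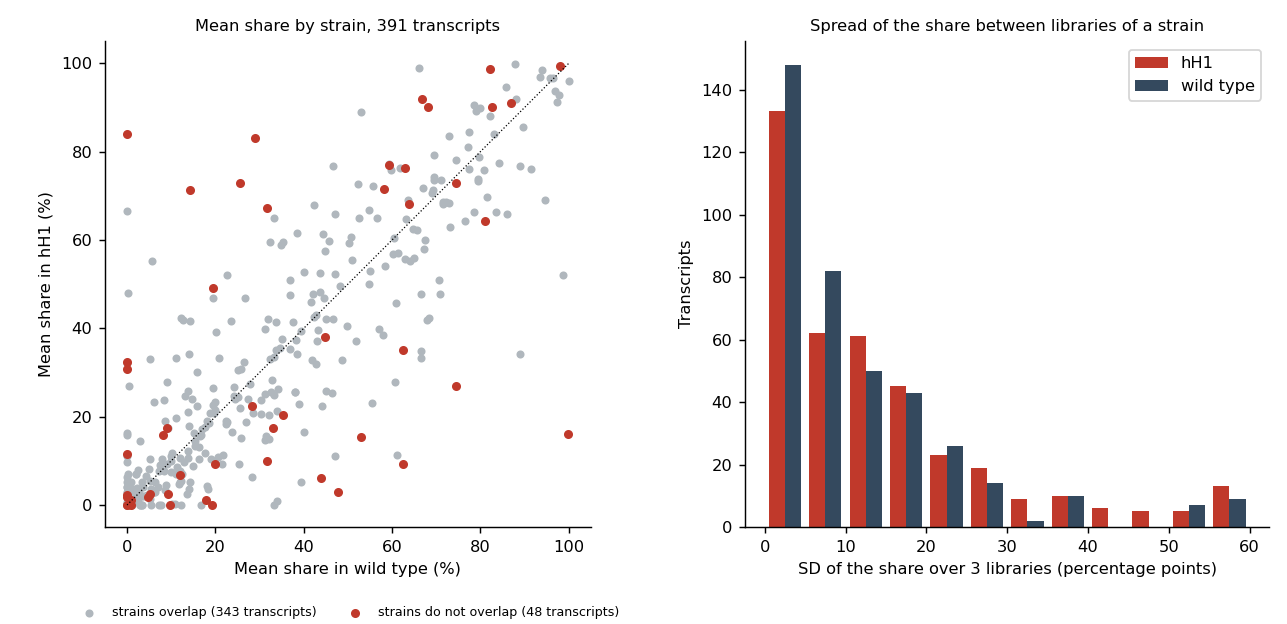
Left, mean share of each of 391 member transcripts in hH1 (y axis, percent) against wild type (x axis, percent), with the 48 whose strains do not overlap in red and equality as a dotted line. Right, number of transcripts by SD of the share over the 3 libraries of hH1 (red) and wild type (dark), in percentage points. Medians are 10.03 and 7.94 points, and the hH1 SDs include the first hH1 library, which stood apart.

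The smallest adjusted p among members was 0.355 (limma), for T0 of NCU03768, which had 1.48%, 2.04% and 1.63% in hH1, against 0%, 0% and 0.000789% in wild type, a difference of 1.72 ± 0.25 points (SE). This gene was named after its values were seen. In tca-5, a gene named for the tricarboxylic acid cycle, T2 had 82.9%, 69.5% and 78.8% in hH1, against 55.3%, 63.7% and 59.3% in wild type. All 3 hH1 libraries were above all 3 wild type libraries, by 17.6 ± 5.4 points between means (SE), with an adjusted p of 0.666 by limma. T1 of tca-5 took 15.0%, 26.9% and 19.3% in hH1, against 40.1%, 30.5% and 35.4% in wild type. The total of tca-5 was 334, 368 and 377 FPKM in hH1 and 272, 328 and 279 FPKM in wild type.

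gsy-1, the glycogen synthase gene, also had strains that did not overlap. Its T1 had 0.838%, 5.61% and 1.22% in hH1, against 10.2%, 7.80% and 10.05% in wild type (adjusted p = 0.565, limma). T3, the leader, had 71.4%, 71.2% and 72.4% in hH1, against 48.4%, 60.7% and 65.2% in wild type (adjusted p = 0.767, limma). The hH1 libraries were close to each other in T3, and the wild type libraries were spread over a wide range below them. The largest non-overlapping differences in genes of at least 5 FPKM were in NCU03142 and NCU02351. T2 of NCU03142 had 100%, 74.5% and 39.3% in hH1, against 25.1%, 17.6% and 0.00777% in wild type. T1 of NCU02351 had 81.1%, 81.9% and 55.9% in hH1, against 21.4%, 0.0187% and 55.3% in wild type. In NCU02351 the lowest hH1 library and the highest wild type library were within 1 point of each other, and neither gene passed the test (adjusted p = 0.718 for NCU03142 and 0.742 for NCU02351, limma).

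In a further 7 genes of at least 5 FPKM that the rule for named genes picked, the mean shares of a transcript differed by 19.2 to 37.6 points without overlap. T0 of NCU05421 had 0%, 11.8% and 6.83% in hH1, against 58.7%, 31.5% and 41.2% in wild type (adjusted p = 0.565, limma). T0 of NCU03220 had 0%, 28.6% and 17.8% in hH1, against 67.9%, 49.6% and 41.3% in wild type. T2 of NCU03219 had 87.3%, 55.7% and 58.9% in hH1, against 35.0%, 17.3% and 42.5% in wild type. T0 of NCU05421 and of NCU03220 was below every wild type library in each hH1 library, and T2 of NCU03219 was above. T2 of NCU00497 had 0%, 0.00449% and 0% in hH1, against 29.0%, 9.57% and 19.1% in wild type. In NCU06372, NCU00515 and fsd-1 the differences were 29.6 points for T0, 21.8 points for T1 and -27.2 points for T2 in that order. None passed the test.

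In 3 members 1 transcript led in all hH1 libraries and another in all wild type libraries. Among 744 genes with 2 transcripts, 8 did so. The count was 6 without the third wild type library and 3 or 4 without any other single library. In NCU02990 T0 had 100%, 99.9% and 52.0% in hH1, against 0%, 0.0721% and 0% in wild type, and T2 took the rest. The total of this gene was only 3.19, 1.65 and 2.51 FPKM in hH1 and 1.22, 1.51 and 2.20 FPKM in wild type, and the adjusted p was 0.496 by limma. In NCU00403, also of low level, T0 led in hH1 with 100%, 100% and 49.0%, against 22.5%, 45.1% and 19.6% in wild type. T2 of NCU00403 had 0.00181%, 0.00321% and 27.7% in hH1 and led in wild type with 52.1%, 54.9% and 80.4%. In fsd-1, a gene named for female sexual development, T1 led in hH1 with 68.0%, 43.3% and 67.0%, against 8.95%, 45.4% and 42.6% in wild type. T2 of fsd-1 had 31.7%, 40.9% and 33.0% in hH1 and led in wild type with 82.6%, 54.6% and 49.9%. fsd-1 had 5.12, 4.65 and 4.70 FPKM in hH1 and 6.48, 5.93 and 6.53 FPKM in wild type.

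The summed FPKM of the gene differed between the strains in a few members. With limma on log2(FPKM + 1), 7 of 127 members passed an adjusted p of 0.05 (5.51%), against 4.99% of the 7208 genes tested. Higher in hH1 were 2 members (1.57%, against 1.73% of all tested), and lower were 5 (3.94%, against 3.26%). At an unadjusted p under 0.05 there were 31 members (24.4%, against 25.9%), and the strains did not overlap in 48 (37.8%, against 32.3%). The median change of members was -0.14 on the log2(FPKM + 1) scale, and that of all genes tested was -0.09. The percentages of members called were near those over all genes tested.

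The 2 members that rose were NCU02588 and NCU09813. NCU02588 (linkage group I) had 83.8, 81.6 and 79.0 FPKM in hH1, against 42.2, 56.3 and 56.5 FPKM in wild type, a log2 change of 0.66 ± 0.14 (SE; adjusted p = 0.0295, limma). NCU09813 (linkage group I) had 76.6, 86.2 and 75.1 FPKM in hH1, against 57.2, 51.2 and 49.0 FPKM in wild type, a log2 change of 0.59 ± 0.12 (SE; adjusted p = 0.0288, limma). The division of NCU02588 was uneven between libraries: T1 had 0%, 56.9% and 69.9% in hH1, against 69.4%, 85.5% and 50.6% in wild type. In NCU09813 T2 led in all 6 libraries.

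Of the 5 members that fell, NCU05791 had the largest change, with 21.9, 29.6 and 30.8 FPKM in hH1, against 51.0, 46.2 and 53.6 FPKM in wild type, a log2 change of -0.86 ± 0.15 (SE; adjusted p = 0.0172, limma). Its 4 transcripts were all in use, and T3 had 27.6%, 46.1% and 52.6% in hH1, against 42.4%, 43.2% and 49.9% in wild type. NCU03773 had 26.2, 26.3 and 26.0 FPKM in hH1, against 51.5, 47.1 and 35.0 FPKM in wild type. stk-4, a serine/threonine kinase gene, had 24.2, 23.6 and 23.8 FPKM in hH1, against 42.8, 31.9 and 37.2 FPKM in wild type. In both genes the hH1 libraries lay closely together and below the lowest wild type library. NCU00196, described above by its exon structure, had 9.54, 11.1 and 13.3 FPKM in hH1, against 19.4, 18.6 and 17.9 FPKM in wild type. NCU07079 had 42.7, 40.6 and 39.3 FPKM in hH1, against 59.0, 57.4 and 57.9 FPKM in wild type. The log2 changes of these 4 genes were -0.73, -0.61, -0.69 and -0.50 in the order given, with adjusted p-values between 0.0318 and 0.0373 (limma).

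In none of these 7 genes did a share pass the test. T0 of NCU00196, the form with the longest coding sequence, led in every library with 66.3%, 70.2% and 52.4% in hH1, against 82.0%, 76.3% and 61.0% in wild type. T2 of stk-4 had 89.2%, 74.6% and 68.7% in hH1, against 83.8%, 81.3% and 87.6% in wild type. By single transcripts, log2(FPKM + 1) was tested for the 311 member transcripts with a mean of at least 1 FPKM. Of these, 0 passed the test, against 0.569% of the 7908 transcripts tested. Without the third hH1 library 1 of them, T0 of NCU00515, passed. At an unadjusted p under 0.05 there were 51 member transcripts (16.4%), against 22% of all transcripts tested. The median standard error was 0.41 for the 311 and 0.20 for all tested, and the median absolute change was 0.46 and 0.27. The lower percentage thus does not show smaller changes in member transcripts.

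Leaving out any single library left at most 3 members called by limma at an adjusted p of 0.05. Without the first wild type library 0 of the 7 remained. The log2 changes were then 0.52 in NCU02588, 0.65 in NCU09813, -0.85 in NCU05791, -0.62 in NCU03773, -0.66 in NCU00196, -0.51 in stk-4 and -0.49 in NCU07079. Their direction could not change, because the strains do not overlap in any of these genes. NCU05791 then had an adjusted p of 0.0994, where its adjusted p-values over 12 alternatives lay between 0.0126 and that value. The number called was 2 without the first, 1 without the second and 2 without the third hH1 library, and 1 without the second and 3 without the third wild type library, NCU05791 always among them. With libraries centred on their medians, a step that moved the median change of all genes to 0.01, 6 members were called, 4 higher and 2 lower in hH1, against 2 higher and 5 lower as deposited. The calls of NCU03773, stk-4 and NCU07079 were lost with this scaling, at adjusted p-values of 0.0564, 0.0629 and 0.0760. Over the 12 alternatives their adjusted p-values lay between 0.0154 and 0.147 for NCU03773, 0.0316 and 0.155 for stk-4, and 0.0335 and 0.144 for NCU07079. gst-3 and NCU04807, a member outside the rule for named genes, were gained as higher in hH1.

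**Figure D5:**
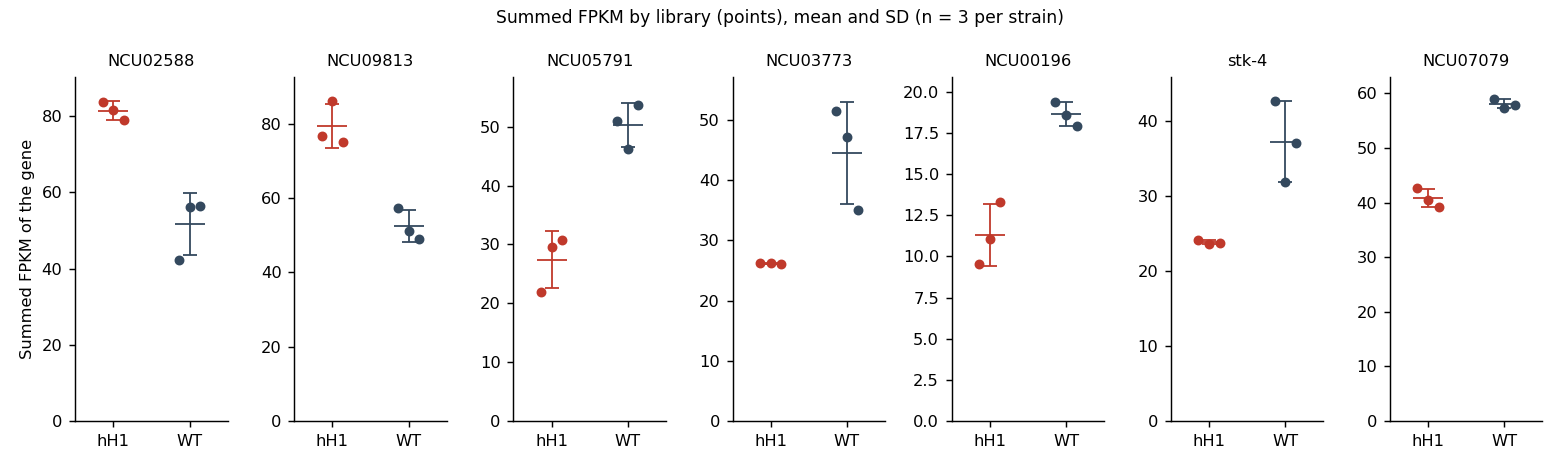
Summed FPKM (y axis, from 0; each gene has its own scale) of the 7 members that passed the test, in the 3 hH1 (left) and 3 wild type (WT, right) libraries. Points are libraries, horizontal lines means and bars SDs (n = 3 each); the strains do not overlap in any of the 7 genes.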

How the data were processed

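The 3 hH1 and 3 wild type RNA-seq libraries were grouped by the genotype in the labels. Per the labels and the study's methods, the authors aligned reads to NC12 with TopHat2 (version 2.0.14) and deposited 1 FPKM value per annotated transcript and library, made with Cufflinks or Cuffnorm (version not given in the sources used here). The scaling between libraries is not stated, and 0 columns of sample values were left unused. Column names show the strain and a number unlike that in the labels, so libraries are called the first, the second and the third of their strain as listed. Transcripts were summed to genes by identifier. Symbols and linkage groups came from the RefSeq table of NC12, and exon structures from the part of the study's annotation used here.

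Shares (percent) and log2(FPKM + 1) were fitted with limma 3.58.1 (lmFit, eBayes with a trend; R 4.3.3), two-sided, with Benjamini-Hochberg adjustment over all features tested and a threshold of 0.05. Features needed a mean of at least 1 FPKM; shares also needed the gene above 0 in each library and a share that varied. The fits were run on simulated data with planted differences and independent normal values in each row. Real shares are bounded and tied within a gene, so the simulation does not cover the setting of the share test. Depth was estimated from the whole steps between low FPKM values. Of 184 transcripts searched, only 7 to 14 per library had such a value. The estimate would be off if libraries had been rescaled. Only a bounded range of depths was searched, and a whole multiple of the true depth gives whole steps too. At the estimated depth 1 FPKM in a transcript of 2113.5 bases was 11.0 to 17.5 fragments in hH1 and 12.4 to 21.5 in wild type.

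The members and the lists were chosen with earlier results of these data known. Named were the members with the most transcripts, the 10 most highly expressed, up to 10 of at least 5 FPKM with the largest non-overlapping share differences, those with a change of leader between strains, those with a called sum, those with a symbol, the 5 with the least dominant leaders and the 5 with exon structures, 55 in all. Alternatives were the scale of the share, the minimum, the pseudocount, the scaling, limma's variance settings and leaving out each library; summaries of shares without the first hH1 library were chosen after seeing the data. Other data of the study were not analysed here.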

Additional observations from a re-analysis of the deposited data

How the results depend on the processing

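No paired analysis was possible because the table's columns do not carry the replicate numbers of the labels. Of all transcripts tested for their share, 0 were called; 2 were called on a log2 ratio scale, with no variance trend and with robust variances, and 0 to 3 without 1 library. Among members 1 share was called without the first wild type library (T1 of NCU06372) and 1 without the third (T2 of ncw-6), and none otherwise. Called gene sums numbered 360, against 188 with no minimum FPKM, 135 with no variance trend and 29 to 372 without 1 library. Among members 7 sums were called, against 4 with no minimum, 4 with quantile normalization and 1 with no variance trend. Centring the libraries gave 66.7% of calls higher in hH1, against 34.7% as deposited. Called transcripts numbered 45, against 19 with a pseudocount of 0.1, 87 with centred libraries and 5 to 33 without 1 library. The number of members with 1 leader in all libraries was 62, against 63 to 73 without 1 library, where it cannot be lower, and 58 of 112 at a minimum of 5 FPKM. No share or sum of a named gene changed direction under the alternatives run for it. Where the strains do not overlap, leaving out a library could not change the direction. Depth is estimated, and by this estimate the 5 members with exon structures had 104 to 855 fragments per gene and library. Only the part of these that crosses a differing stretch tells transcripts apart, and that part was not counted.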

Other observations

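Shares were also set beside exon structure in 27 genes with 2 transcripts, a mean of at least 5 FPKM and a structure in the annotation used here. Their transcripts differed by 18 to 1470 exonic bases. In the 14 genes with up to 320 differing bases, the SD of the share of T0 between libraries of a strain, averaged over the strains, had a median of 16.2 points, against 7.97 points in the 13 genes with more. Across the 27 genes Spearman's rho between differing bases and this SD was -0.21, a weak relation given as a description; the points share the same 6 libraries, genes are not independent replicates, and depth differs between genes.

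Other members with symbols filled in the range between even and unstable division. In dap-1 T1 had 64.1%, 58.0% and 59.4% in hH1, against 67.2%, 52.6% and 61.9% in wild type. In syn-1 T2 had 33.3%, 65.8% and 100% in hH1, against 88.5%, 76.0% and 86.1% in wild type. In pex31, a peroxisome gene, T1 had 100%, 45.0% and 27.8% in hH1, against 22.5%, 52.5% and 59.4% in wild type. In ncw-6, a cell wall gene, T0 led in every library with 72.6% to 100% in hH1 and 88.4% to 91.0% in wild type. mig-10 was led by T0 except in the second library of each strain, where T1 led, and T0 had 70.2%, 44.1% and 67.5% in hH1, against 49.8%, 49.2% and 53.0% in wild type. col-22, a gene of low level with 1.46 to 4.00 FPKM, was led by T0 except in the third hH1 library, with 100%, 66.6% and 41.0% in hH1, against 100%, 100% and 83.6% in wild type. In un-7 T2 led in every library with 64.3%, 73.1% and 85.3% in hH1, against 61.3%, 77.1% and 70.2% in wild type. NCU03176 had a different leader in each library of a strain (its leading mean share over the 6 libraries was 42.4%), and its T2 had 55.9%, 25.2% and 46.4% in hH1, against 33.8%, 68.6% and 24.6% in wild type.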
